A study of Homo sapiens with 56 samples.

Results

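The genes described here are 10 long noncoding RNA genes in mantle cell lymphoma cells: 8 snoRNA host genes (GAS5, SNHG1, SNHG5, SNHG6, SNHG8, SNHG12, SNHG15 and ZFAS1) and 2 nuclear RNAs, NEAT1 and MALAT1. They were chosen by gene symbol as decay-sensitive host transcripts and nuclear RNAs, and all 10 were among the 21595 named genes of the deposited table. A snoRNA host gene carries small nucleolar RNAs, the guides of ribosomal RNA modification, in its introns. Its spliced exons are exported, briefly engaged by ribosomes and destroyed by nonsense-mediated decay, so host RNA is known to build up when translation or that decay is blocked. NEAT1 is the scaffold of paraspeckles and is known to be induced by proteasome inhibition and other stresses. MALAT1 sits in nuclear speckles, where splicing factors gather, and its mature end is a triple helix rather than a poly-A tail, so poly-A selected libraries catch it incompletely.

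The 56 RNA-seq libraries came from established human mantle cell lymphoma lines labelled Z138 (13 libraries), JEKO-1 (15), MINO-VR (13) and MINO-P (15). The labels do not explain P and VR and give no dose or time. Treatment labels were CON (5 libraries, untreated), CLF (6), BTZ (6), IBR (11), YM155 (4), S63845 (6), BTZ_CLF (4), IBR_CLF (8), BTZ_YM155 (2), IBR_YM155 (2), BTZ_S63845 (1) and IBR_S63845 (1). BTZ and IBR are usual codes for bortezomib, a proteasome inhibitor, and ibrutinib, an inhibitor of Bruton's tyrosine kinase, and the design text names both drug classes. S63845 inhibits MCL-1, YM155 lowers survivin (BIRC5), and CLF is not spelled out. Line and treatment made 37 groups, of which 22 held a single library, and no label says that libraries of a group came from separate cultures, so p-values measure the spread between these libraries. Levels are in nuclear CPM, which is CPM recomputed over genes outside the mitochondrial genome, with no correction for gene length. Bulk RNA cannot tell fewer cells expressing a gene from less RNA per cell.

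Host transcripts often begin with a terminal oligopyrimidine tract, a run of C and T that starts with C at the first base and is shared with ribosomal protein mRNAs. The bases around the annotated start are shown because 7 of the 8 hosts varied together across libraries. The 80-base stretches below, from RefSeq GRCh38.p14, run 5′ to 3′ from 40 bases before the start and carry in capitals a run of at least 5 pyrimidines beginning with C within 5 bases of it.
SNHG12: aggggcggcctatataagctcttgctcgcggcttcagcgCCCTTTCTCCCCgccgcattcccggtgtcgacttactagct
SNHG5: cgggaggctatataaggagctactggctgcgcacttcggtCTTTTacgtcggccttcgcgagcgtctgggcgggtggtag
ZFAS1: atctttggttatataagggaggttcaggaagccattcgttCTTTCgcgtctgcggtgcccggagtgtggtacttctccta
SNHG8: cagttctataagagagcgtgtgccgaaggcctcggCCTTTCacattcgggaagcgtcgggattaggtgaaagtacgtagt
SNHG1: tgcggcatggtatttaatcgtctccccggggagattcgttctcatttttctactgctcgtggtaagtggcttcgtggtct
These windows lie at chr1:28581834-28581913 (minus strand, SNHG12), chr6:85678694-85678773 (minus, SNHG5), chr20:49278602-49278681 (plus, ZFAS1), chr4:118278722-118278801 (plus, SNHG8) and chr11:62855846-62855925 (minus, SNHG1). At the annotated start itself such a run was found in SNHG12, SNHG5 and ZFAS1, as in 4.07% of 35116 promoter windows and in 15 of the 25 windows of a list of oligopyrimidine mRNAs. SNHG8 held one that began 5 bases upstream. SNHG1 held none within 5 bases. GAS5 held none in a window at chr1:173869006-173869085, but that window lies upstream of the GAS5 span counted in the table, so it does not describe the start of that span. The annotated starts of the other hosts shown lie inside their counted spans, not at the edge. For SNHG12 the start is at 28581873 and the span edge at 28583133, and for ZFAS1 at 49278642 and 49277054. These windows therefore do not describe the starts of the counted spans either. No window is shown for SNHG6 or SNHG15. Within 5 bases of the start the run was found in 21.1% of all windows. A run of letters is a description of the window, not a measured start site.

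By the coordinates of the table (hg38), GAS5 spans chr1:173851424-173868941 and holds 11 snoRNA genes of RefSeq within that span, among them SNORD44 and SNORD47. SNHG1 (chr11:62851833-62856445) holds 9, SNHG12 (chr1:28578536-28583133) 4, ZFAS1 (chr20:49277054-49299601) 3, and SNHG5 (chr6:85644369-85678944) 2. SNHG6 on chromosome 8, SNHG8 (chr4:118278462-118285317) and SNHG15 (chr7:44983019-44986962) each hold 1. NEAT1 (chr11:65422278-65445541) and MALAT1 (chr11:65497606-65508074) hold none. None of the 26 small nucleolar or Cajal body RNA rows of the table lay inside a member, so the snoRNAs themselves were not compared with their hosts. Strand use in counting is not given in the sources used here, and reads from genes on the opposite strand cannot be told apart where they overlap. This touches SNHG1, which overlaps SLC3A2, a transporter gene at a median of 897 nuclear CPM, and also GAS5 (ZBTB37), SNHG12 (TRNAU1AP) and ZFAS1 (ZNFX1).

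Several libraries stood apart. Mitochondrial genes held 1.91% to 80.5% of a library (median 6.69%), and over 50% in 6 libraries, all JEKO-1: the first pair of BTZ, the pair of BTZ_CLF and the pair of IBR_CLF. Recovered depth outside mitochondrial genes ran from 1.37 to 20.6 M reads, so that 3 reads were worth 0.145 to 2.18 nuclear CPM. The third JEKO-1 BTZ library listed 99 of 4325 genes with a median of at least 50 nuclear CPM at 0, against at most 13 in any other library. The 8 pairs of libraries whose names differ by a final a include the JEKO-1 pairs over 50% mitochondrial. These 8 pairs differed far less than other pairs of a group (chi-square per degree of freedom of 4.06 to 8.22, against 48.6 to 349). They were averaged, which left 48 samples. Summed markers of B cells and mantle cells ran from 920 to 6527 nuclear CPM, with CCND1 (cyclin D1), the gene that defines this lymphoma, at 207 or more in all 56 libraries. The other 5 marker lists had summed medians of 0.271 to 12.

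A large contrast among these genes was between library names. Names fall into runs (HK, MCL1-10, MCL11-18 and MCL20-37), and 5 combinations of line and treatment had libraries in both MCL1-10 and MCL20-37. SNHG12 was at 39.8 and 55.2 nuclear CPM in the MINO-P IBR libraries named MCL1-10 and at 5.20 in the one named MCL20-37. In MINO-VR IBR it was at 52.5 and 54.7 against 4.59, and in JEKO-1 IBR at 23.7 and 31.2 against 3.85. These are the same cell line and the same treatment label, and the levels did not overlap. In each, however, the MCL1-10 side is an averaged pair and the MCL20-37 side a single library. How many of all genes separate in this way was not counted. ZFAS1, whose introns hold SNORD12 and its relatives, was at 481 and 437 against 156 nuclear CPM in MINO-P IBR, at 419 and 421 against 116 in MINO-VR IBR, and at 307 and 303 against 46.9 in JEKO-1 IBR. SNHG8, host of SNORA24, was at 137 and 114 against 22.7, at 117 and 106 against 26.0, and at 130 and 135 against 19.9 in these 3. Untreated cells were not sequenced in MCL20-37, and the labels do not say what the runs are.

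**Figure D1:**
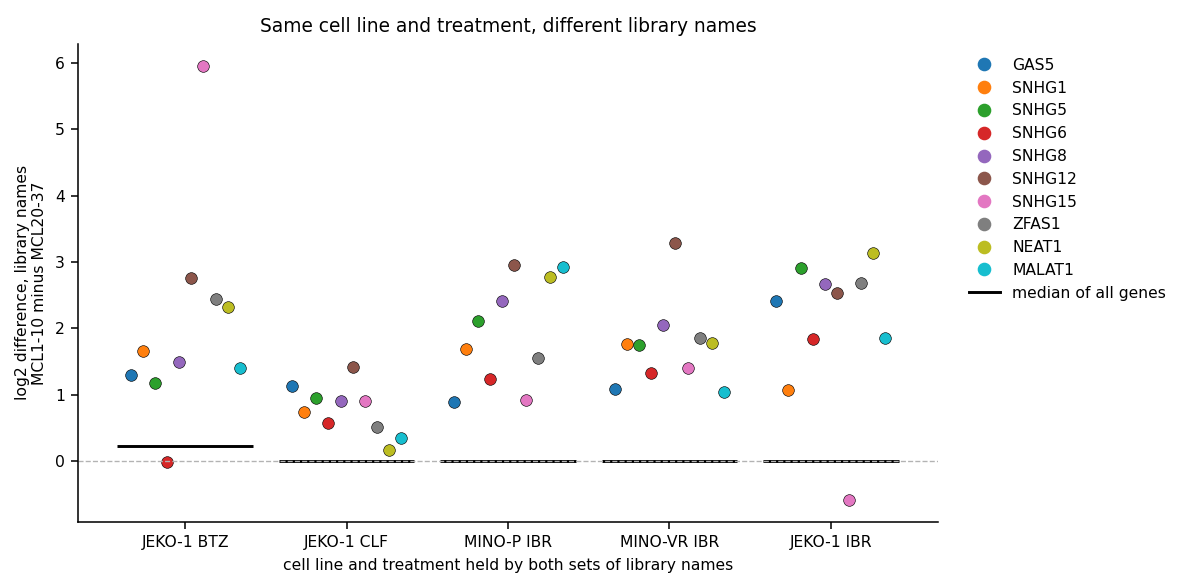
Log2 difference in nuclear CPM (plus 1) between libraries named MCL1-10 and libraries named MCL20-37, for the 5 combinations of cell line and treatment that both hold; points are the 10 genes and black bars the median of all genes. Nearly all points lie above the bars, which sit between 0 and 0.22; the topmost point, SNHG15 in JEKO-1 BTZ, rests on a library where the gene is listed at 0.

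The mean log2 difference of the 8 hosts was 1.72 in MINO-P IBR, 1.82 in MINO-VR IBR, 1.94 in JEKO-1 IBR, 0.89 in JEKO-1 CLF and 2.10 in JEKO-1 BTZ, or 1.55 there without SNHG15. The median of all genes differed by 0 in 4 of these combinations and by 0.22 in JEKO-1 BTZ. Of the 8 hosts 6 (GAS5, SNHG1, SNHG5, SNHG8, SNHG12 and ZFAS1) and both nuclear RNAs were higher in MCL1-10 in all 5 combinations, which held for 8.37% of 17203 genes. SNHG6 was level in JEKO-1 BTZ (105 and 89.7 against 98.4 nuclear CPM), and SNHG15 was lower in MCL1-10 in JEKO-1 IBR (17.7 and 13.4 against 23.7). A limma fit with 1 mean per line and treatment plus a term for the run, a comparison chosen after these values were seen, called 6 hosts: SNHG12 (2.59 ± 0.46 SE, adjusted p = 0.0156), SNHG8 (1.91 ± 0.27, 0.0105), ZFAS1 (1.81 ± 0.29, 0.0129), SNHG5 (1.78 ± 0.29, 0.0137), SNHG1 (1.38 ± 0.28, 0.0242) and GAS5 (1.36 ± 0.28, 0.0247). It called 3.88% of 16755 genes, 324 higher in MCL1-10 (1.93%) and 326 lower. With deposited CPM 189 were higher and 602 lower, and with size factors 499 and 293. NEAT1 (2.03 ± 0.59, adjusted p = 0.0684), MALAT1 (1.51 ± 0.44, 0.0708), SNHG6 (0.99 ± 0.26, 0.0529) and SNHG15 (1.72 ± 0.69, 0.157) did not pass.

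SNHG8 kept its call in all 10 alternatives of this comparison, with a highest adjusted p of 0.0474. Without the third JEKO-1 IBR library or without the third MINO-VR IBR library it was the 1 host still called, and the adjusted p of the other 5 rose to between 0.0549 and 0.0921, while their estimates stayed large (2.41 for SNHG12 and 1.80 for ZFAS1 without the MINO-VR library). The host mean of this comparison was 1.69, and 1.59 to 1.89 with 1 sample left out. Without the third MINO-P IBR library 3 hosts passed. Calls were also gained: without the second JEKO-1 CLF library NEAT1 (2.50, adjusted p = 0.0324), MALAT1 (1.80, 0.0428) and SNHG6 (1.10, 0.0436) passed, and without the third JEKO-1 BTZ library SNHG6 did (1.24, 0.0131). With each library as its own sample all 4 members that had missed the threshold passed. That setting counts the averaged pairs as separate samples and called 3544 genes, against 650 with the pairs averaged. The mitochondrial share was higher in MCL1-10 in 4 of the 5 combinations (for example 16.5% against 8.51% in MINO-P IBR) and lower in JEKO-1 CLF (2.14% against 4.38%), where all 8 hosts were still higher; its part in the difference was not tested. Among 21 other noncoding snoRNA hosts tested, 10 were higher in MCL1-10 and 0 lower (median 1.40, against 0.06 for all genes), led by SNHG22 (3.01), SNHG25 (2.80) and SNHG21 (2.38). Of 22 oligopyrimidine mRNAs 3 were higher (RPS18, RPS3 and RPL11), with a median of 0.62, and among the decay factors the kinase SMG1 was lower (-0.80). None of 12 stress mRNAs that decay targets was called, although their median was 1.31.

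**Figure D2:**
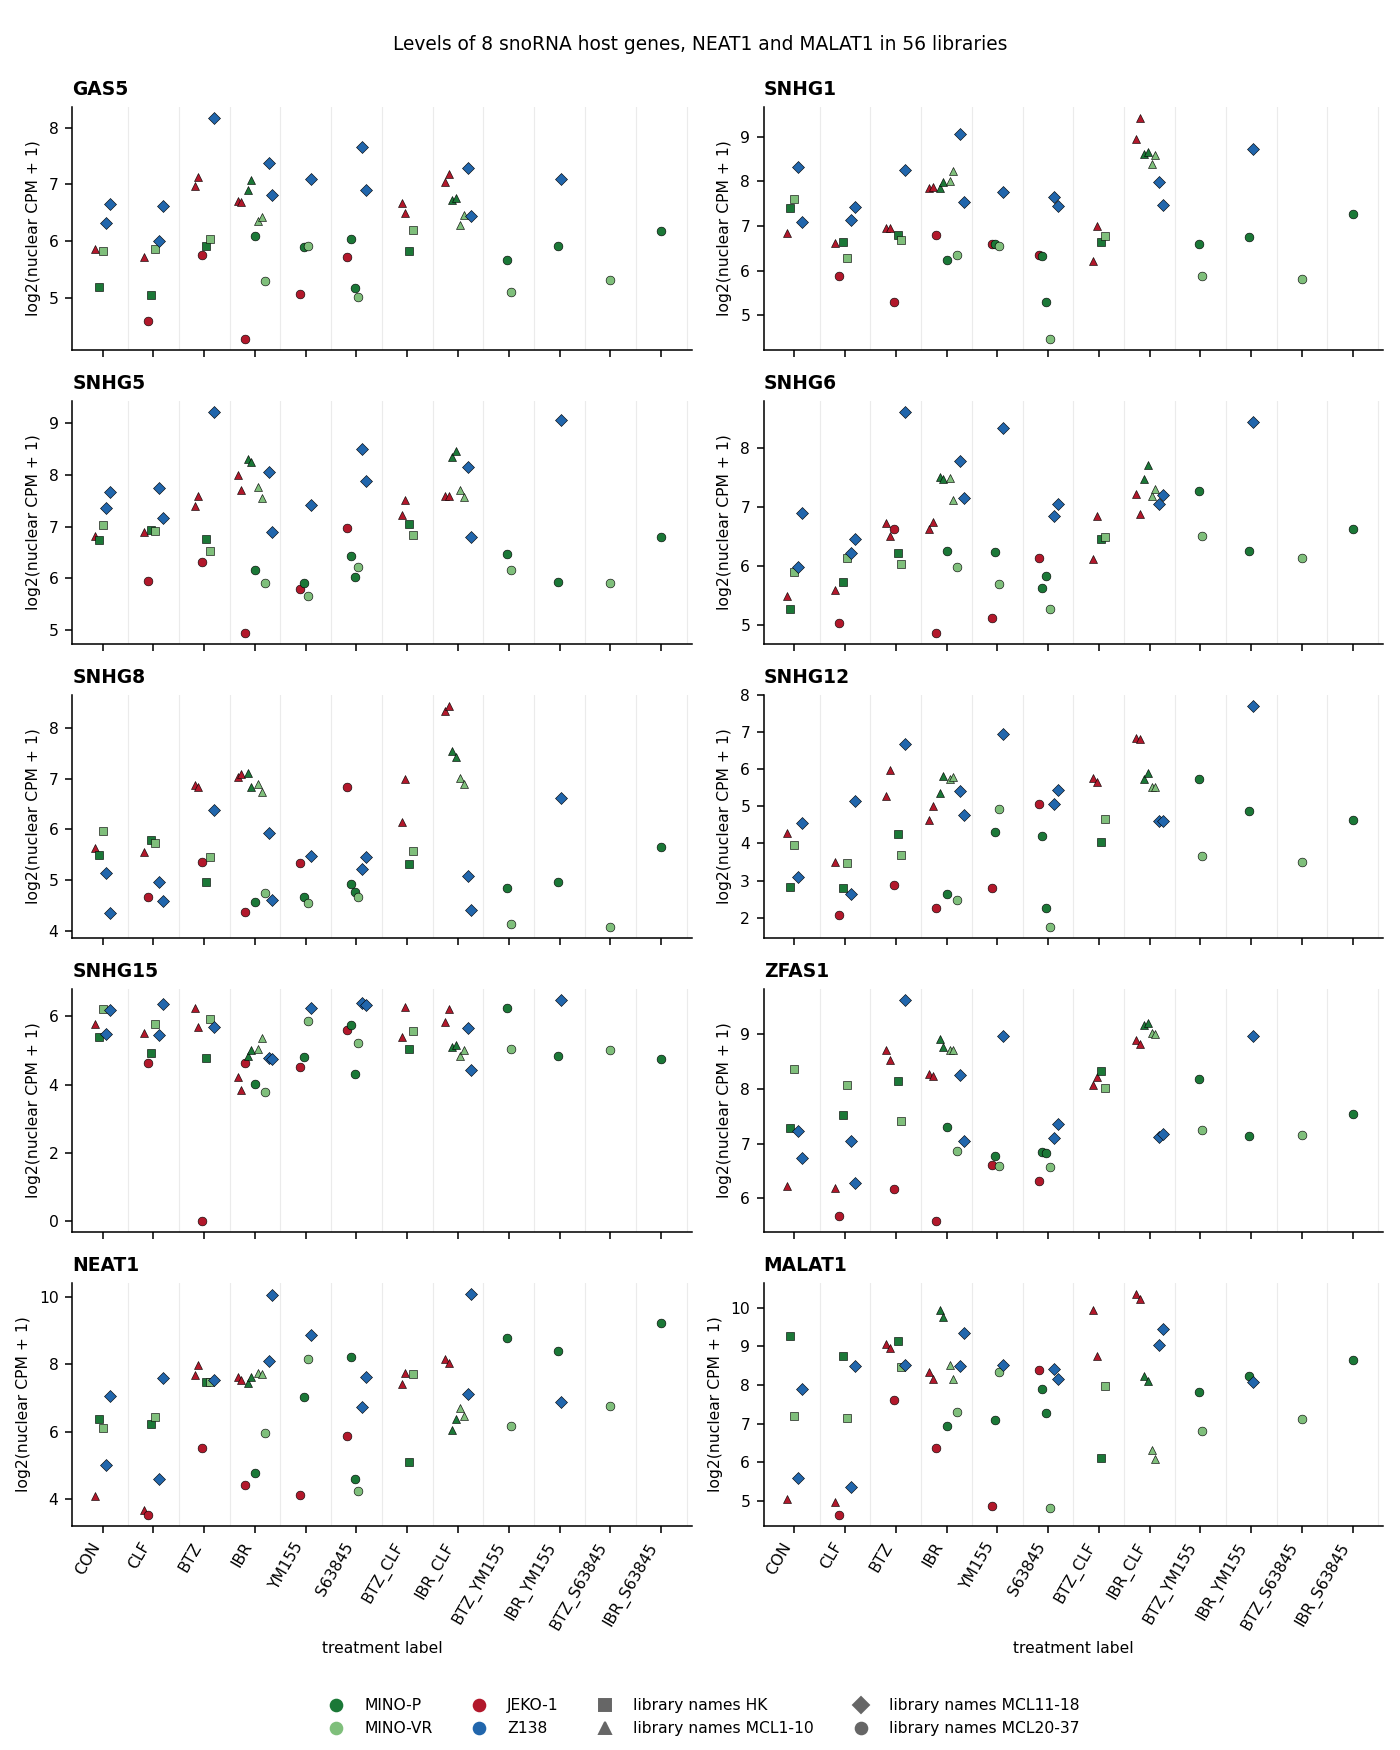
Level of each gene in each of the 56 libraries, as log2(nuclear CPM + 1), by treatment label; colour gives the cell line and shape the run of library names. Under BTZ, IBR and CLF the JEKO-1 circles (MCL20-37) lie below the JEKO-1 triangles (MCL1-10) for most genes, and NEAT1 and MALAT1 span more than 5 log2 units.

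Across the 56 libraries MALAT1 ran from 23.9 to 1306 nuclear CPM (median 285) and NEAT1 reached 1081 (median 134). SNHG12 ran from 2.37 to 208 (median 23.9), ZFAS1 from 46.9 to 793 (median 176), and SNHG1 from 21.2 to 689 (median 130). SNHG5 lay between 29.8 and 595, GAS5 between 18.4 and 288, SNHG6 between 28.0 and 394.5, and SNHG8 between 15.9 and 344. SNHG15 reached 88.5 and was listed at 0 in 1 library. The plot of levels by treatment shows that CON libraries themselves differed: MALAT1 was at 612 in MINO-P, 147 in MINO-VR, 32.4 in JEKO-1, and 47.6 and 236 in Z138.

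Under BTZ, SNHG6 rose. Its untreated level was 37.6 nuclear CPM in MINO-P, 58.2 in MINO-VR, 44.0 in JEKO-1, and 62.4 and 119 in Z138. With BTZ it was at 73.1 in MINO-P, 64.2 in MINO-VR, 105, 89.7 and 98.4 in JEKO-1, and 394.5 in Z138. Each BTZ library was above the CON libraries of its own line, but over all lines the groups overlapped, since the higher Z138 control exceeded every BTZ library outside Z138. In an additive limma fit of treatment, line and name series on 48 samples the change was 1.18 ± 0.39 (SE) on the log2 scale, 2.27-fold, with an adjusted p of 0.0307. SNHG6, the host of SNORD87, was the 1 member called of 10, beside 16.8% of all 16755 genes (671 genes higher and 2151, or 12.8%, lower), so the number of calls among the members was no higher than the background. That split moved with the scaling, to 256 higher and 2923 lower with deposited CPM and 1089 higher and 1721 lower with size factors. The call was lost without the Z138 BTZ library (0.93, adjusted p = 0.113), without the first Z138 CON library (1.01, 0.0906) and without the MINO-P CON library (1.11, 0.0750).

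No other host passed the test under BTZ. GAS5, which binds the glucocorticoid receptor, was at 35.6, 55.6, 57.5, 78.6 and 99.7 nuclear CPM in the CON libraries of the lines in the order given for SNHG6. In BTZ it was at 288 in Z138, 124, 139 and 52.7 in JEKO-1, 64.7 in MINO-VR and 59.3 in MINO-P. Its change of 0.85 ± 0.38 did not pass (adjusted p = 0.123). ZFAS1 was at 283 against 154 in MINO-P, at 417, 368 and 71.0 against 73.7 in JEKO-1 and at 793 against 149 and 106 in Z138. In MINO-VR, and in the third JEKO-1 library, it was lower with BTZ (169 against 327 in MINO-VR). Its change was 0.97 ± 0.56 (adjusted p = 0.244), and that of SNHG12 was 1.07 ± 0.77 (0.367). SNHG1 had a negative estimate (-0.48 ± 0.45), as had SNHG15 (-1.18 ± 0.61, adjusted p = 0.183). The estimate of SNHG15 rested on the third JEKO-1 BTZ library, where it was listed at 0: without that library it was -0.15.

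The calls under BTZ depended on how the runs entered the fit. With line and run as 1 term, added after seeing the data, so that a difference between runs does not enter the drug effect, SNHG6 (1.28, adjusted p = 0.00343), GAS5 (1.01, 0.00596) and ZFAS1 (1.16, 0.0459) were called, beside 18.3% of all genes. SNHG12 reached 1.34 (adjusted p = 0.0818). The third JEKO-1 BTZ library has no untreated library in its run. For Z138, whose libraries all share a run, splitting the groups of the other lines by run left the estimates as they were and lowered the spread, and SNHG6 (2.18, adjusted p = 0.0334) and ZFAS1 (2.65, 0.0361) were called beside 5.90% of genes. Both adjusted p-values were above the threshold with runs pooled (0.133 and 0.235, beside 1.84% of genes). In both fits the BTZ side in Z138 is 1 library, so its spread is borrowed from other groups. That library detected 13191 genes, fewer than any other except the third JEKO-1 BTZ library (11914). None of 70 member differences between lines passed.

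NEAT1 was higher with BTZ in each line, although it was not called. It was at 176 against 81.4 nuclear CPM in MINO-P, 175 against 67.6 in MINO-VR, 202, 249.5 and 44.3 against 16.1 in JEKO-1, and 182 against 31.3 and 131 in Z138. MALAT1 was at 528, 495 and 193 against 32.4 in JEKO-1, at 364 against 47.6 and 236 in Z138 and at 353 against 147 in MINO-VR, but at 563 against 612 in MINO-P. The changes were 1.80 ± 0.86 for NEAT1 (95% interval 0.07 to 3.53, adjusted p = 0.146) and 1.73 ± 0.79 for MALAT1 (0.14 to 3.32, 0.128). With each library as its own sample and the name suffix as a block, NEAT1 passed (1.95, adjusted p = 0.0481), beside 18.9% of genes. The mitochondrial share of the first JEKO-1 BTZ pair was 67.6% and 67.5%, and the part of this in the levels was not tested. The third, at 9.92%, had the lowest NEAT1 of the 3 but was still above its control.

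**Figure D3:**
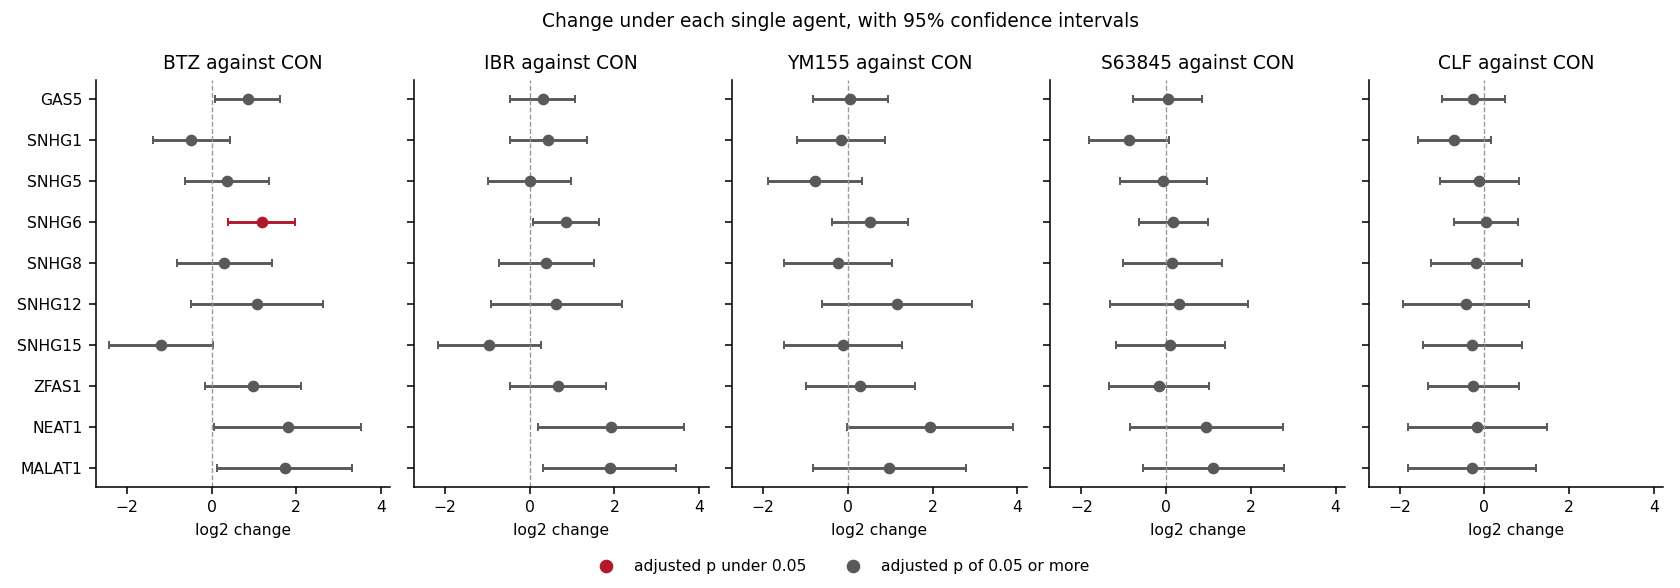
Log2 change of each gene under each single agent against CON from the additive fit on 48 samples; points are estimates, bars 95% confidence intervals, red marks an adjusted p under 0.05. SNHG6 under BTZ is the 1 red point; intervals of NEAT1 and MALAT1 are the widest and lie above 0 under BTZ and IBR.

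Ibrutinib-labelled (IBR) libraries showed no called member, beside 8.07% of all genes. In JEKO-1 the CON library and the first pair of IBR libraries share the MCL1-10 names, and there NEAT1 was at 194 and 183 nuclear CPM against 16.1, and MALAT1 at 320 and 283 against 32.4. ZFAS1 was at 307 and 303 against 73.7, SNHG8 at 130 and 135 against 48.7, and SNHG5, host of SNORD50A and SNORD50B, at 254 and 209 against 112. The third JEKO-1 IBR library, named in MCL20-37, lay below the same control for these hosts: ZFAS1 was at 46.9, SNHG8 at 19.9, SNHG5 at 29.8 and GAS5 at 18.4 against 57.5. The mean change of the hosts in JEKO-1 was -0.18 with the runs pooled and 0.79 within MCL1-10. For Z138, IBR libraries had NEAT1 at 270 and 1050 against 31.3 and 131, and MALAT1 at 359 and 650 against 47.6 and 236. With 2 libraries on each side, no member was called for IBR in that line, beside 0.00597% of genes.

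Over all lines the IBR changes were 1.92 ± 0.85 for NEAT1 (adjusted p = 0.163) and 1.88 ± 0.78 for MALAT1 (0.132). SNHG6 had the largest host estimate (0.86 ± 0.39, adjusted p = 0.171), and the host mean was 0.29. SNHG15, host of SNORA9, had the lowest estimate (-0.95 ± 0.60, adjusted p = 0.365). It was at 41.3, 73.2, 53.5, 43.5 and 71.9 nuclear CPM in the CON libraries, and the IBR libraries ran from 12.9 to 40.5 with a median of 25.9. No IBR library reached the lowest CON library, which is MINO-P at 41.3, but the gap to the highest IBR library, at 40.5, was small. The 11 IBR libraries make 8 samples once pairs are averaged. How many of all genes separate in this way was not counted. Limma array weights, which count libraries that fit poorly for less, called NEAT1, MALAT1, SNHG6 and SNHG15 (2.43, 2.53, 1.12 and -1.11, the last with an adjusted p of 0.0135), beside 24.2% of genes. Without the libraries over 50% mitochondrial MALAT1 passed as well (2.18, adjusted p = 0.0314). MINO-P and MINO-VR had no untreated library in a run with IBR.

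YM155, S63845 and CLF gave no called member. YM155 called 0.519% of genes. In Z138 its library stood at 324.5 nuclear CPM for SNHG6 against 62.4 and 119 in CON, at 123 for SNHG12 against 7.54 and 22.7, and at 503 for ZFAS1 against 149 and 106. NEAT1 was at 464 against 31.3 and 131 there. In JEKO-1 the YM155 library was below CON for most hosts (GAS5 32.6 against 57.5, SNHG5 54.2 against 112) and level for NEAT1 (16.3 against 16.1), but its name is in MCL20-37 and that of the control in MCL1-10. The host mean was 1.09 in Z138 and -0.64 in JEKO-1, and no member's difference between the lines passed the test. With 1 YM155 library in each line no gene passed it, so this says nothing particular about the members. Over all lines NEAT1 had the largest estimate (1.94 ± 0.97, adjusted p = 0.361), followed by SNHG12 (1.16 ± 0.87, 0.590).

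S63845 called 0 of 16755 genes by limma (420 at an unadjusted p under 0.05), and the host mean was -0.04. With line and run as 1 term it was 0.72, so its sign rests on how the runs are treated. In JEKO-1 MALAT1 was at 334 nuclear CPM with S63845 against 32.4, and SNHG8 at 113 against 48.7, with names in different runs. In Z138 SNHG5 was at 358 and 233 nuclear CPM against 163 and 203, and MALAT1 at 337 and 284 against 47.6 and 236. SNHG1 was at 199 and 173 in Z138 against 318 and 134. CLF also called 0 genes (58 unadjusted), with host estimates from -0.71 for SNHG1 to 0.04 for SNHG6. In the HK-named pairs SNHG1 was at 98.5 with CLF against 168 in MINO-P and at 76.8 against 194 in MINO-VR, while GAS5 was at 32.3 against 35.6 and at 57.4 against 55.6. The 95% interval for SNHG6 under CLF ran from -0.70 to 0.79.

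When CLF was combined with IBR, SNHG1 was higher than with CLF alone. With IBR_CLF it was at 252.5 and 176 nuclear CPM in Z138, 494 and 689 in JEKO-1, 334 and 384 in MINO-VR, and 389 and 405 in MINO-P. With CLF it was at 139 and 172 in Z138, 97.3 and 58.1 in JEKO-1, 76.8 in MINO-VR and 98.5 in MINO-P. The levels did not overlap in any line, but the gap in Z138 was small (176 against 172). In MINO-VR and MINO-P the CLF side is 1 HK-named library and the IBR_CLF side 1 averaged pair with MCL names. Treatment and name series therefore cannot be told apart within these lines. The share of all genes that separate in this way was not counted. The change of SNHG1 over all lines was 1.85 ± 0.46 (adjusted p = 0.0395), the 1 member called beside 0.848% of all genes. The call was lost in 14 of 23 alternatives (adjusted p 0.0519 to 0.746), among them the term for line and run (1.31, 0.121). It was also lost without any 1 of the 6 CLF libraries, and without the IBR_CLF sample of JEKO-1 (1.48, 0.172), MINO-VR (1.68, 0.111) or MINO-P (1.68, 0.117). SNHG12 (2.14 ± 0.78), ZFAS1 (1.53 ± 0.57), SNHG8 (1.47 ± 0.57) and SNHG6 (1.19 ± 0.40) had large estimates with adjusted p-values from 0.113 to 0.183. With each library as its own sample and the suffix as a block SNHG6 (1.23, adjusted p = 0.0300) and ZFAS1 (1.67, 0.0471) were called. That setting counts the averaged pairs as separate samples. Array weights called SNHG12, ZFAS1, SNHG8, SNHG6 and GAS5, but they called 2708 genes in all, against 142 without weights. SNHG6 also passed with no series term (1.27, adjusted p = 0.0478), and both SNHG6 (1.43, 0.0327) and ZFAS1 (1.92, 0.0455) without the first Z138 IBR_CLF library.

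Against IBR alone, IBR_CLF had positive estimates for all 8 hosts (0.38 to 1.09, mean 0.66), and limma called 0 genes (686 unadjusted). The IBR group holds MCL20-37 libraries and the IBR_CLF group none, and with line and run as 1 term the host mean was 0.10. In the JEKO-1 pairs, both named in MCL1-10, SNHG8 was at 319 and 344 with IBR_CLF against 130 and 135 with IBR, SNHG12 at 113 and 110 against 23.7 and 31.2, and SNHG15 at 55.6 and 72.7 against 17.7 and 13.4. Mitochondrial genes held 60.7% and 59.1% of the IBR_CLF pair and 20.9% and 19.9% of the IBR pair, and the part of this in the host levels was not tested. In MINO-P, by contrast, SNHG6 was at 177 and 211 against 182 and 178, and SNHG5 at 325 and 352 against 317 and 303.

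The nuclear RNAs had opposite differences in these libraries of MINO-P and JEKO-1. In MINO-P MALAT1 was at 300 and 275 nuclear CPM with IBR_CLF against 982 and 871 with IBR in the same run, and in MINO-VR at 78.7 and 67.2 against 365 and 286. In JEKO-1 it was at 1306 and 1186 against 320 and 283. NEAT1 was at 64.5 and 81.7 against 174 and 196 in MINO-P, and at 283 and 260 against 194 and 183 in JEKO-1. The difference between lines was not tested. IBR libraries of MINO-P and MINO-VR named MCL20-37 had MALAT1 at 121 and 157, so the lower level with CLF did not hold against those in MINO-P.

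BTZ_CLF against BTZ called 0 genes (546 unadjusted), with a host mean of 0.16, and BTZ_CLF against CLF called 10.4% of genes and no member. MINO-P again had less of both nuclear RNAs with CLF: NEAT1 was at 33.1 nuclear CPM with BTZ_CLF, 176 with BTZ and 81.4 in CON, and MALAT1 at 68.8, 563 and 612. In MINO-VR NEAT1 was at 209 with BTZ_CLF and 175 with BTZ. Within the group-means fit the MALAT1 estimate in MINO-P was -3.13 ± 1.48 against CON (adjusted p = 0.574, 1 library a group). BTZ_YM155 had the highest SNHG6 of MINO-P outside MCL1-10 (154), and IBR_S63845 the highest NEAT1 of MINO-P (599.7), each from 1 library. In Z138 IBR_YM155 gave the highest SNHG12 of all libraries (208). No member was called in the contrasts of BTZ_YM155 and IBR_YM155 (0.0537% of genes for BTZ_YM155 against BTZ, 0.412% against YM155, and 0 for IBR_YM155). IBR_S63845 and BTZ_S63845 were not tested.

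With 1 mean for each line and treatment, no member was called in any of 27 contrasts, in which few genes passed at all. In JEKO-1 the share called was 0.818% for BTZ, 0.0239% for IBR, 0.0179% for YM155 and 0.519% for S63845. In Z138 it was 0.00597% for IBR and 0.125% for YM155. In MINO-P it was 0.119% for BTZ, 0.0119% for CLF, 0.113% for BTZ_CLF and 0.0477% for IBR against S63845, and in MINO-VR 0.161% for BTZ, 0.292% for BTZ_CLF and 0.0776% for IBR against S63845. The differences between lines called at most 0.0298% of genes (Z138 minus JEKO-1 under S63845), and 0.0119% for those under BTZ and, for Z138 minus JEKO-1, under IBR. SNHG12 in Z138 had wide errors, 3.12 ± 1.59 (adjusted p = 0.493) under YM155 and 2.86 ± 1.59 (0.425) under BTZ.

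Between lines, 4 of the 8 hosts were called higher in Z138 against both JEKO-1 and MINO-P, beside 25.4% and 18.7% of all genes. Median GAS5 was 118 nuclear CPM in Z138, 89.3 in JEKO-1, 59.5 in MINO-VR and 59.3 in MINO-P, and median SNHG5 was 214, 148, 114 and 107 in that order. Adjusted for treatment, Z138 exceeded JEKO-1 in SNHG6 (1.34 ± 0.26, adjusted p = 4.13e-05), GAS5 (1.19 ± 0.26, 0.000171), SNHG5 (1.12 ± 0.32, 0.00377), SNHG1 (0.86 ± 0.30, 0.0154) and NEAT1 (1.85 ± 0.57, 0.00661). SNHG8 went the other way (-0.90 ± 0.37, adjusted p = 0.0395), with medians of 34.4 in Z138 and 113 in JEKO-1. The call of SNHG8 was lost in 5 of 11 alternatives, while those of the other 5 held in all 11. These 6 of 10 members stand beside 52.8% of all genes (4248 higher and 4594 lower, or 5768 and 2775 with deposited CPM). The number of calls among the members was thus close to the background. Without the libraries over 50% mitochondrial, all of them JEKO-1, SNHG12 (1.40, adjusted p = 0.0316), SNHG15 (1.28, 0.00794), ZFAS1 (1.11, 0.0170) and MALAT1 (1.71, 0.00321) were called and SNHG8 was not (-0.53, 0.267). Deposited CPM gained and lost the same members, so the count rests on how these libraries and the mitochondrial reads are treated.

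Against MINO-P, Z138 was higher in GAS5 (0.99 ± 0.28, adjusted p = 0.00516), SNHG1 (1.10 ± 0.33, 0.00779), SNHG6 (0.94 ± 0.29, 0.00850) and SNHG5 (1.04 ± 0.36, 0.0202). These 4 of 10 members stand beside 36.4% of genes, so this count too was close to the background. NEAT1 (1.35 ± 0.63, adjusted p = 0.0909) and SNHG12 (1.21 ± 0.57, 0.0920) did not pass. All Z138 libraries are named MCL11-18 and no other line has such names, so line and run cannot be told apart. Neither JEKO-1 against MINO-P (33.8% of genes called) nor MINO-VR against MINO-P (5.31%) called a member. For MINO-VR against MINO-P host estimates lay between -0.16 and 0.38, and MALAT1 was at -0.87 ± 0.54 (adjusted p = 0.481).

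Within Z138, 5 treatments had 1 library whose name ends in A and 1 whose name does not, and NEAT1 was higher in the A library in all 5. It was at 131 against 31.3 nuclear CPM in CON, 193 against 23.4 in CLF, 197 against 105 in S63845, 1050 against 270 in IBR and 1081 against 137 in IBR_CLF. MALAT1 was higher in 4 of the 5, from 359 against 40.2 in CLF to 284 against 337 in S63845. Hosts were mixed: SNHG12 was higher in the A library in 4 of 5 and SNHG5 lower in 4 of 5, and SNHG1 was at 134 against 318 in CON and 185 against 533 in IBR. Of all genes, 15.8% were higher in the A library in all 5 pairs. A fit of the suffix, chosen after these values were seen, gave 2.17 ± 0.59 for NEAT1 (adjusted p = 0.0727) and 1.28 ± 0.44 for MALAT1 (0.161) beside 2.91% of genes called. With each library as its own sample NEAT1 (2.17, adjusted p = 0.00600) and MALAT1 (1.28, 0.0422) passed with unchanged estimates. That setting counts the averaged pairs of the other lines as separate samples. Array weights called both as well as SNHG12 (1.51, 0.00728) and SNHG5 (-0.57, 0.0298). They called 4611 genes in all, against 487 without weights. The labels do not say what the suffix means. The Z138 YM155 library carries the suffix and the BTZ library does not.

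**Figure D4:**
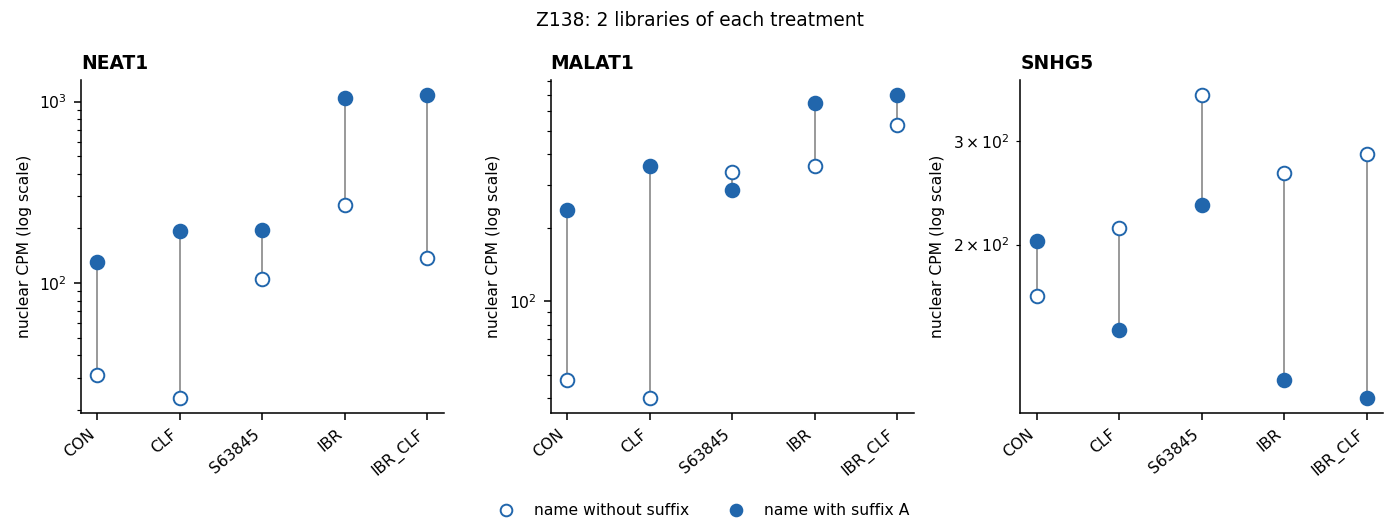
Nuclear CPM (log scale) of NEAT1, MALAT1 and SNHG5 in the 2 Z138 libraries of each of 5 treatments; open circles are names without a suffix, filled circles names ending in A. NEAT1 is higher in the filled circle in all 5 treatments, MALAT1 in 4, and SNHG5 is lower in 4.

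Genes of the same pathways were counted beside the shares of all genes called, which were 12.8% lower and 671 of 16755 genes higher under BTZ. Under BTZ 0 of 21 other noncoding hosts passed (median -0.28, against -0.19 for all genes), and of 20 protein-coding hosts 4 fell, among them the pseudouridine synthase DKC1 (-1.40), nucleolin (NCL, -1.18) and GNL3 (-0.99), while the chaperone gene HSPA8 rose (1.41). Of 17 RNA exosome and exonuclease genes 4 fell, with EXOSC5 at -2.20 and EXOSC7 at -1.78, and XRN1 rose (1.00). Of 13 paraspeckle protein genes 3 fell: SMARCA4 (-1.47), DAZAP1 (-0.87) and HNRNPK (-0.72). Among 15 other nuclear or long noncoding RNAs 3 rose (FTX 1.47, CYTOR 1.45 and NORAD 1.11) and 0 fell. Decay factors gave 1 call of 17 (EIF4A3, -0.77), and the stress mRNAs that decay targets gave GADD45A (1.89) and CHAC1 (-2.02).

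Under IBR 4.88% of all genes were called lower and 3.19% higher. Of 20 protein-coding hosts 5 fell, led by DKC1 (-1.52), NOP56 (-1.38) and GNL3 (-1.21), and LINC-PINT was the 1 other noncoding host that rose (1.93). Of 15 nuclear speckle genes 4 fell, among them the splicing factors SRSF2 (-1.72), SRSF7 (-1.46) and SRSF1 (-1.29). The long noncoding RNAs MIAT (2.97) and LINC00963 (1.55) rose, as did PPP1R15A (2.48), which reverses a translation block, among 12 stress mRNAs. Of 17 exosome genes 3 fell, led by EXOSC5 (-1.49). YM155 called none of the 152 list genes.

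Over 48 samples, with each line's mean removed, the hosts varied together. The 28 pairs of hosts had a median Pearson r of 0.70 (lowest -0.02, highest 0.89 for SNHG5 with SNHG8), a description over samples that share runs and depth. SNHG15 was the exception, with at most 0.42 to any other host. NEAT1 and MALAT1 had r = 0.81 with each other and a median of 0.37 and 0.45 to the hosts. Among 9783 genes with a mean of at least 10 nuclear CPM, the genes most like ZFAS1 were SNHG32 (0.91) and EPB41L4A-AS1 (0.90), both noncoding snoRNA hosts, and those most like SNHG5 were RPL37 (0.92), RPL35A (0.87) and RPS21 (0.86), which encode ribosomal proteins. SNHG12 was most like TAF1D (0.85) and CHASERR (0.82), and SNHG15 most like GFUS, SNRPB and DUS3L (0.86 to 0.85). NEAT1 was most like AHSA2P, LINC-PINT and WHAMM (0.80 to 0.77), and MALAT1 most like RN7SL1 and RN7SL2 (0.73), which encode the RNA of the signal recognition particle.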

How the data were processed

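The authors deposited 1 table of log2(CPM + 1) values, the unit being read from the values, whose CPM has the same sum in each library. Partek and hg38 are named in the submitters' processing notes, without role or version; the aligner, counter, annotation and strand use are not given in the sources used here. Per the labels' protocols, RNA was isolated on RNeasy columns and poly-A selected with the TruSeq v2 kit. All value columns matched a library (0 unmatched), and the reads of 1 row without a gene name (0.000773% or less per library) were not used.

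The log2 was undone and CPM recomputed over genes outside the mitochondrial genome (nuclear CPM). Low values gave whole reads in 62.9% to 86.8% of cases (within 0.02 of a read), so no count model was fitted; the steps put depth at 5.52 to 21.6 M reads. Floors cover counting error only. Genes with at least 1 nuclear CPM in 2 samples (16755) were tested on log2(nuclear CPM + 1) with limma 3.58.1 (R 4.3.3; intensity trend, 2-sided, Benjamini-Hochberg over all genes, threshold 0.05), so fold changes of low genes are understated. One fit had treatment, line and name series (HK or MCL) as terms (32 residual degrees of freedom, 19 contrasts). A second had 1 mean for each of 37 groups (11, 27 contrasts), and another added terms for name run and suffix (9). Combinations and single agents share libraries as controls. Named genes were the 10 members, the 3 genes most like each, and up to 3 rising and falling called genes of each of 9 lists. Members and lists were chosen with earlier results of these data known. The fits were tested on simulated data. Alternatives covered scaling, pseudocount, filters, weights, name runs, pairing and left-out samples. Some results are not reported here.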

Additional observations from a re-analysis of the deposited data

How the results depend on the processing

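Of 601 values of the host means under alternatives, 582 moved by less than the residual spread and 19 moved further. That spread was 0.76 on the log2 scale in the additive fit, 0.88 with group means and 0.37 in the fit of name runs. It exceeds many of the means themselves, such as 0.38 for BTZ, so the count does not show that they were stable. Host means carry no test, and several changed sign. With line and name run as 1 term (chosen after seeing the data) the host mean was 0.95 for YM155 against CON, 0.72 for S63845 against CON and 0.76 for BTZ_YM155 against BTZ. With name runs kept apart it was 1.03 for JEKO-1 BTZ, 0.79 for JEKO-1 IBR, 0.28 for MINO-VR IBR against S63845, and 0.61 and -0.35 for Z138 minus JEKO-1 in BTZ and in IBR. With JEKO-1 and Z138 alone, IBR_YM155 against IBR gave 1.35. Leaving out 1 sample gave host means from -1.07 to 1.03 in JEKO-1 BTZ, -1.15 to 0.79 in JEKO-1 IBR and 0.28 to 2.10 in MINO-VR IBR against S63845. The same ranges for Z138 minus JEKO-1 were 0.61 to 2.71 in BTZ and -0.35 to 1.59 in IBR. The labels give no replicate numbers that pair samples; with each library as its own sample and the suffix as a replicate block, the host mean was 0.47 for BTZ and 0.39 for IBR, against 0.38 and 0.29 in the fit on 48 averaged samples without a block, so both choices differ. That block ended the call of SNHG5 for Z138 against MINO-P (0.76, adjusted p = 0.0717).

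The call of SNHG6 under BTZ also ended with deposited CPM (0.92, adjusted p = 0.111), with JEKO-1 and Z138 alone (1.61, 0.0740) and with array weights (0.72, 0.0690); it held in 16 of 22 alternatives. Without libraries over 50% mitochondrial SNHG15 under BTZ passed (-1.66, adjusted p = 0.0417). For JEKO-1 BTZ that setting keeps only the third library, where SNHG15 was listed at 0, so the pass rests on that library. Deposited CPM moved the median of all genes under BTZ from -0.19 to -0.38. Genes called ranged from 803 to 5371 for BTZ (2822 reported), 16 to 4059 for IBR (1352), 0 to 2708 for IBR_CLF against CLF (142), 36 (without the third JEKO-1 IBR library) to 3544 for the name runs (650), 148 to 4611 for the suffix (487), 21 to 7104 for BTZ_CLF against CLF (1735), 0 to 664 for YM155 (87), 8 to 279 for BTZ_YM155 against BTZ (9), 9 to 1043 for BTZ_YM155 against YM155 (69), 245 to 3167 for BTZ against IBR (1976), and 601 to 4300 for MINO-VR against MINO-P (890). With a mean of at least 10 nuclear CPM required, which tests fewer genes, 5303 were called for Z138 against JEKO-1 (8842), 3850 for Z138 against MINO-P (6096) and 3597 for JEKO-1 against MINO-P (5657). Deposited CPM also moved the split of higher and lower genes for JEKO-1 against MINO-P (3121 and 2536 to 1753 and 3160), BTZ_CLF against CLF (556 and 1179 to 165 and 3630), IBR_CLF against CLF (53 and 89 to 3 and 56) and BTZ against IBR (415 and 1561 to 101 and 2334). For JEKO-1 BTZ it moved the genes called from 137 to 3150. Single libraries of most groups limit what these data can resolve.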
